A study of Mus musculus with 20 samples.

Results

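The genes described here encode the potassium channels and their auxiliary subunits, taken as every gene whose symbol begins with Kcn. They numbered 98 of the 39179 genes in the count table, and 97 of them had a count in at least 1 mouse. Tests were run on the 80 that exceeded 1 CPM (counts of a gene per 1000000 reads counted on genes) in at least 3 of the 20 mice, out of 14792 genes that passed the same filter. The mice came from 2 lines: the High-Active line, bred for home cage activity from a cross of 8 inbred strains, and the unselected Control line from the same founders. All were males of generation 17, about 6.5 months old, and the whole striatum of both sides was taken 2 hours after an intraperitoneal injection. Within each line 5 mice received saline and 5 received amphetamine at 0.25 mg/kg, which gives 4 groups. Each line is a single breeding population, so allele changes from selection and from drift cannot be told apart. By the parents in the labels, the 10 Control mice came from 8 families and the 10 High-Active mice from 5, and 9 High-Active mice shared parents with another High-Active mouse.

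Potassium channels let potassium leave or enter a cell and so set its resting potential, the length of its spikes and its firing rate. Voltage-gated Kv channels open on depolarization, inward rectifiers (Kir, the Kcnj genes) hold the membrane near the potassium equilibrium, two-pore channels (Kcnk) carry leak current, and a further class opens with intracellular calcium or sodium. In medium spiny neurons, the projection neurons of the striatum, Kir2 channels hold the negative resting state and Kv1, Kv4 and Kv7 channels delay and limit firing. G-protein-coupled inward rectifiers (GIRK) are opened by receptors such as the dopamine D2 receptor.

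The pore-forming classes share a pore signature. All 65 tested pore-forming members encoded, in the longest coding transcript, serine or threonine, any residue, glycine, then tyrosine, phenylalanine or leucine, then glycine, and none of the 13 auxiliary members did. Each of the 9 two-pore members held at least a pair of such matches. So did *Kcna6* and *Kcnh2*, which are not two-pore genes. No genes outside the family were searched, so the match is a description and not a test. The coding bases around this selectivity filter are shown for 8 of the 9 genes that differed between the lines. The classes were set by symbol and not by these bases. Capitals mark the codons for glycine, an aromatic residue and glycine. Sequences are from GENCODE transcripts of mouse build GRCm38, read 5′ to 3′ in the coding direction. A second match in *Kcna6*, with a leucine codon, is left out.
Kcna4, chr2:107296486-107296515, plus strand, tyrosine: accatgacaactgtgGGCTATGGGgacatg
Kcna6, chr6:126738641-126738670, minus strand, tyrosine: acaatgaccacggtaGGTTATGGGgacatg
Kcnq3, chr15:66023725-66023754, minus strand, tyrosine: acactggccaccattGGTTATGGAgacaag
Kcnh3, chr15:99232920-99232949, plus strand, phenylalanine: agtctcaccagtgtgGGCTTCGGCaacgtg
Kcnt1, chr2:25894358-25894387, plus strand, phenylalanine: actttctcaactgtgGGCTTCGGTgatgtg
Kcnj5, chr9:32322553-32322582, minus strand, tyrosine: acagaaacaaccattGGGTATGGCttcaga
Kcnj10, chr1:172369293-172369322, plus strand, tyrosine: tcccagaccaccatcGGCTATGGCttccgc
Kcnk2 first pore, chr1:189258885-189295609, minus strand, spanning an intron between exons 3 and 4, phenylalanine: gttatcacaaccataGGATTTGGAaacatc
Kcnk2 second pore, chr1:189256575-189256604, minus strand, phenylalanine: actctgacgaccattGGATTTGGAgactac
The Kv1, Kv7 and inward rectifier genes shown had tyrosine at the middle position, and *Kcnh3*, *Kcnt1* and both pores of *Kcnk2* had phenylalanine.

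Counted reads on genes ran from 32388971 to 53710713 per mouse, with a median of 41703854. Potassium channel genes took 0.468% to 0.557% of them. A count of 3, taken as the detection floor, equals 0.0559 to 0.0926 CPM, and covers counting error only. The median within-group SD of the 80 members was 0.23 in log2 CPM, against 0.15 over all genes tested. Markers of medium spiny neurons were abundant in every mouse, with a summed level of 4397 to 7244 CPM over 10 genes, and none of the 10 passed for line, although 9 of the 10 had negative differences (median -0.13). A list of 9 markers of cortical excitatory neurons, among them the vesicular glutamate transporter *Slc17a7*, was present at a much lower and uneven level. Its summed level ran from 311.6 to 843.2 CPM (median 449) in Control saline, from 616.8 to 853.1 (704.1) in Control amphetamine, from 162.6 to 344.5 (194.1) in High-Active saline and from 223.2 to 984.5 (549.4) in High-Active amphetamine. Of these markers 3 of 9 were lower in High-Active mice at a false discovery rate (FDR) under 0.1, and 8 of 9 had positive amphetamine differences that missed that threshold (median log2 difference 0.95). A score of these markers was therefore entered as a covariate in an alternative fit, whose values stand beside the results below. Because the score itself differed between groups, from a mean of -0.87 in High-Active saline to 0.57 in Control amphetamine, the covariate also removes part of any group difference that goes with it. In bulk tissue, a change in the share of a cell type and a change in RNA per cell cannot be told apart.

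Levels per kilobase (RPKM, which is CPM divided by the exon length in kilobases) differed widely across the family. Of the 80 members, 28 had a mean above 10 RPKM and 20 a mean under 1, with a median of 4.16. The highest was *Kcnip2*, the KChIP2 subunit that accompanies Kv4 channels, at 89.1 RPKM (range over mice 68.7 to 113.4). Next came *Kcnj4*, which encodes Kir2.3, at 61.4 (43.0 to 70.5) and *Kcna1*, which encodes Kv1.1, at 55.7 (46.5 to 62.8). The ranges of these last 2 genes overlapped each other and that of *Kcnab2*, the Kv beta 2 subunit, at 47.9 (38.6 to 57.1), while the whole range of *Kcna1* lay below that of *Kcnip2*. *Kcnj10*, the Kir4.1 channel of glia, stood at 45.7 (30.8 to 62.8). *Kcnab1*, another Kv beta subunit, was at 43.4, *Kcnk1* (TWIK-1) was the highest two-pore gene at 40.6 and *Kcnd2*, the Kv4.2 pore, was at 37.9.

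**Figure D1:**
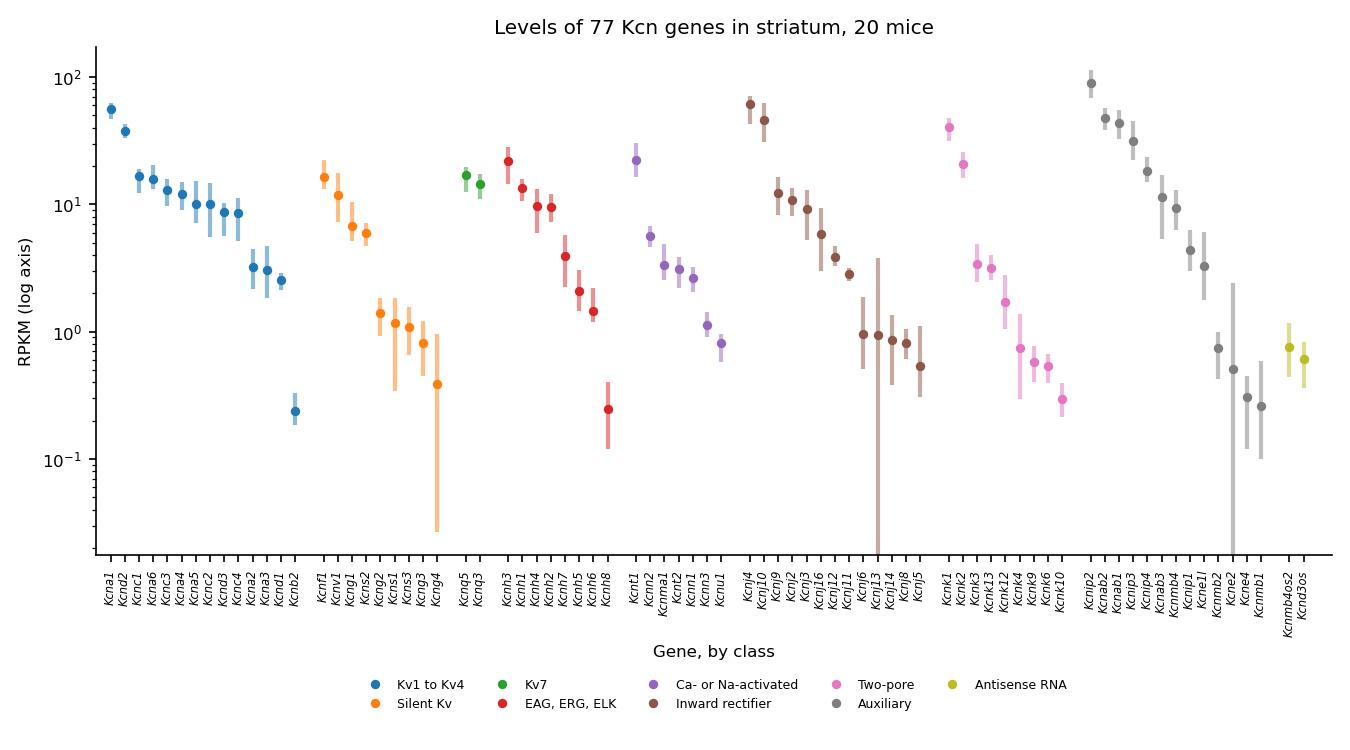
Mean RPKM of 77 of the 80 tested genes (points, log axis) with the range over 20 mice (vertical lines), by class and in falling order within a class. *Kcnip2* was highest at 89.1 RPKM and *Kcnb2* lowest at 0.240. The lines of *Kcnj13* and *Kcne2* run off the lower edge because some mice had no count.

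Among the other classes, *Kcnt1*, the sodium-activated Slack channel, led its class at 22.4 RPKM and *Kcnh3*, of the ELK group, led its own at 22.1. *Kcnf1*, a silent Kv subunit that modifies Kv2 channels, was highest in its class at 16.5. The calcium-activated SK channels fell in the order *Kcnn2* at 5.60, *Kcnn1* at 2.64 and *Kcnn3* at 1.12 RPKM, with no overlap of their ranges, and *Kcnma1*, the BK channel, stood at 3.37. The antisense RNA *Kcnmb4os2* stood at 0.762. The 18 members that were not tested included *Kcnq1*, with at most 11 reads in a mouse, and *Kcnk16*, which had 0 reads in all 20 mice. Lengths are union exon lengths, so a gene with a long untranslated end can stand lower per kilobase than per transcript.

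The line comparison asked which channel genes differed between High-Active and Control striatum, averaged over both treatments. In edgeR's quasi-likelihood test, 9 of the 80 members (11.25%) passed FDR under 0.1, against 14.5% of all genes tested, so the share of channel genes was near the background. Of these, 4 were higher in High-Active mice, where 7.63% of all genes were, and 5 were lower, where 6.90% of all genes were. At an unadjusted p under 0.05 there were 14 members, 5 higher and 9 lower, against 26.1% of all genes. The median log2 difference was -0.02 over the members and -0.0009 over all genes. No member had all 10 High-Active mice on one side of all 10 Control mice, which 0.264% of all genes had. The count of lower genes was 8 without mouse 872 and 3 without mouse 197, 407, 415, 454, 871 or 883. The share of all genes in those runs is not given here. When the counts of each family were added up, *Kcnk2*, *Kcnj10*, *Kcna6*, *Kcnh3* and *Kcna4* passed, and *Kcnn2* (0.22, FDR 0.13), *Kcnt1* (-0.29, FDR 0.14), *Kcnj5* (0.50, FDR 0.23) and *Kcnq3* (-0.15, FDR 0.29) did not.

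**Figure D2:**
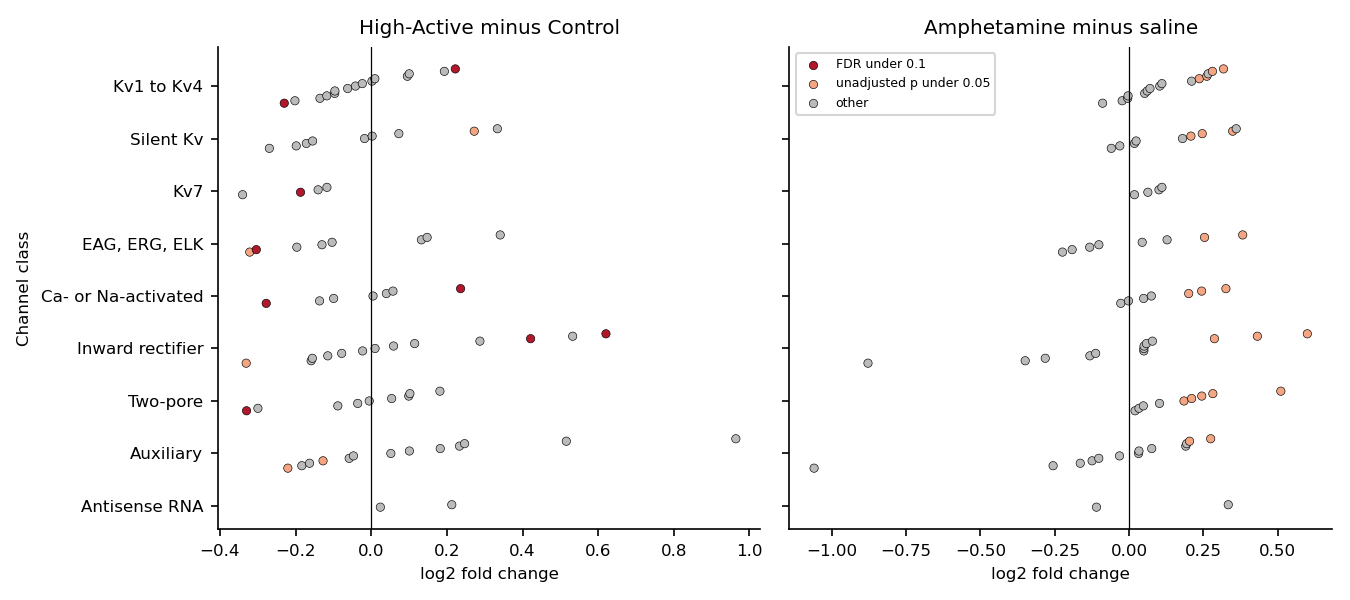
Log2 fold change of each tested gene (points) by class, for High-Active minus Control on the left and amphetamine minus saline on the right. Dark red points passed FDR under 0.1, pale red points had an unadjusted p under 0.05 and grey points neither. All 9 dark red points are in the line panel, and in the amphetamine panel all 22 pale red points lie to the right of 0.

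*Kcnk2*, the mechano- and lipid-gated leak channel TREK-1, showed the smallest p of the family and was lower in the High-Active line. Its level was 96.7 CPM at the lowest, 114.3 at the median and 127.7 at the highest over the 10 Control mice, and 79.5, 91.4 and 109.9 over the 10 High-Active mice. In 8 of the 10 High-Active mice it lay below every Control mouse. The log2 difference was -0.33 (SE 0.061, edgeR FDR 0.0041). It was -0.30 among saline mice and -0.36 among amphetamine mice, with FDR under 0.1 in each. With the cortical score in the fit the difference was -0.26 (FDR 0.0726). The other 8 tested two-pore genes did not pass; *Kcnk1*, the most abundant, had a line difference of -0.01.

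Inward rectifiers contributed 2 higher genes. *Kcnj10*, the Kir4.1 channel with which astrocytes and oligodendrocytes clear potassium, had a lowest, median and highest level of 166.5, 208.4 and 260.4 CPM in Control and 241.0, 274.3 and 339.5 CPM in High-Active mice. Only 1 Control mouse of 10 reached above 241.0, so the lines barely overlapped, and 6 High-Active mice lay above all Control mice. The log2 difference was 0.42 (SE 0.083, FDR 0.0062), and it was 0.40 with the cortical score (FDR 0.0597). Glial markers differed alongside. Of 6 astrocyte markers 5 had positive differences, and 3 were higher and 1 lower in High-Active mice at FDR under 0.1. Of 7 oligodendrocyte markers 2 were higher at that FDR and all 7 had positive differences. The summed astrocyte level ran from 4002 to 4744 CPM in Control and 3997 to 4579 CPM in High-Active mice. Most of that sum was *Slc1a2* (2385 to 3282 CPM), the 1 lower marker (-0.12), so it says little about the others. The oligodendrocyte level ran from 3876 to 6534 CPM in Control and from 5392 to 7180 CPM in High-Active mice. No astrocyte score was entered in a fit. With the cortical and oligodendrocyte scores together, *Kcnj10* was the only member to pass (0.40, FDR 0.0799).

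*Kcnj9*, which encodes the GIRK3 subunit, lies 11891 bp from *Kcnj10* on chromosome 1 and had a line difference of -0.16 that did not pass (FDR 0.32). *Kcnj5* encodes the GIRK4 subunit. It was a low gene, at 1.45, 1.76 and 3.13 CPM (lowest, median, highest) in Control and 1.66, 2.89 and 5.18 in High-Active mice, with wide overlap. Its log2 difference of 0.62 (SE 0.22) passed at FDR 0.0838, but leaving out any of 12 of the 20 mice (197, 369, 407, 411, 415, 448, 454, 457, 487, 499, 871 or 883) ended the call. With the cortical score it was 0.25 (FDR 0.67). The Kir2 genes, which set the resting potential of medium spiny neurons, did not pass: *Kcnj4* had a line difference of -0.16 (FDR 0.23), *Kcnj2* of -0.08 (FDR 0.58) and *Kcnj12* of 0.06 (FDR 0.62).

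Among the Kv1 to Kv4 pores, *Kcna6* and *Kcna4* differed in opposite directions. *Kcna6*, the Kv1.6 subunit, was higher, at 78.3, 85.5 and 100.5 CPM in Control and 83.5, 102.1 and 120.4 CPM in High-Active mice (lowest, median, highest). The lines overlapped, with 5 High-Active mice above every Control mouse. Its log2 difference was 0.22 (SE 0.059, FDR 0.0288). Its neighbours on chromosome 6, *Kcna1* and *Kcna5*, had differences of -0.02 and 0.19 that did not pass (FDR 0.83 and 0.25). *Kcna4*, the inactivating Kv1.4 subunit, was lower, at 55.6, 62.7 and 70.5 CPM in Control and 43.3, 52.4 and 71.8 CPM in High-Active mice. High-Active mice spanned nearly the entire range, with 7 below and 1 above all Control mice. The log2 difference of -0.23 (SE 0.085) had FDR 0.0962, and leaving out any of 14 mice (the same 12 as for *Kcnj5*, 192 or 872) ended the call. *Kcnd2*, the Kv4.2 pore behind the A-type current of spiny neurons, had a difference of -0.04 (FDR 0.61), and *Kcnip2* of -0.16 (FDR 0.21). *Kcna2* and *Kcnc1*, of the Kv1 and Kv3 groups, had differences of -0.14 and 0.01, and neither passed. With the cortical score the difference of *Kcna6* was 0.19 (FDR 0.23) and that of *Kcna4* -0.22 (FDR 0.36).

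The Kv7 genes encode subunits of the muscarine-sensitive M-current, and 1 of the 4 tested, *Kcnq3*, passed and was lower. It stood at 196.7, 233.8 and 254.9 CPM in Control and 163.3, 200.5 and 233.9 CPM in High-Active mice, with 5 of 10 High-Active mice below every Control mouse. Its log2 difference was -0.19 (SE 0.062, FDR 0.0688), and any of 7 mice left out (197, 407, 415, 448, 454, 871 or 883) ended the call. *Kcnq5* had a difference of -0.14 that did not pass (FDR 0.23). With the cortical score *Kcnq3* had a difference of -0.16 (FDR 0.36).

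*Kcnh3* and *Kcnt1* were also lower. *Kcnh3*, a forebrain ELK channel, stood at 112.3, 139.8 and 161.8 CPM in Control and 83.1, 114.8 and 152.7 CPM in High-Active mice, with 4 High-Active mice below all Control mice (log2 difference -0.30, SE 0.092, FDR 0.0499). Its level rose with the cortical score within groups (slope 0.27 per unit of score, FDR 0.0292), and with the score in the fit the line difference was -0.13 (FDR 0.52). *Kcnt1*, whose channel opens with intracellular sodium, stood at 190.5, 227.7 and 288.7 CPM in Control and 156.3, 188.1 and 227.9 CPM in High-Active mice. It had 5 High-Active mice below all Control mice (log2 difference -0.28, SE 0.083, FDR 0.0482), and the difference was -0.20 with the score (FDR 0.39).

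*Kcnn2*, the SK2 channel that carries the after-hyperpolarization, was the higher gene of the calcium-activated class. It stood at 34.3, 36.4 and 46.7 CPM in Control and 41.9, 44.8 and 50.3 CPM in High-Active mice. The High-Active mice were close together, and all 10 lay above the Control median. The log2 difference was 0.24 (SE 0.054, FDR 0.0133), and it was 0.23 with the cortical score (FDR 0.0892). The related *Kcnn1* and *Kcnn3* had differences of 0.00 and 0.06 and did not pass, and *Kcnma1* had -0.14 (FDR 0.32).

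**Figure D3:**
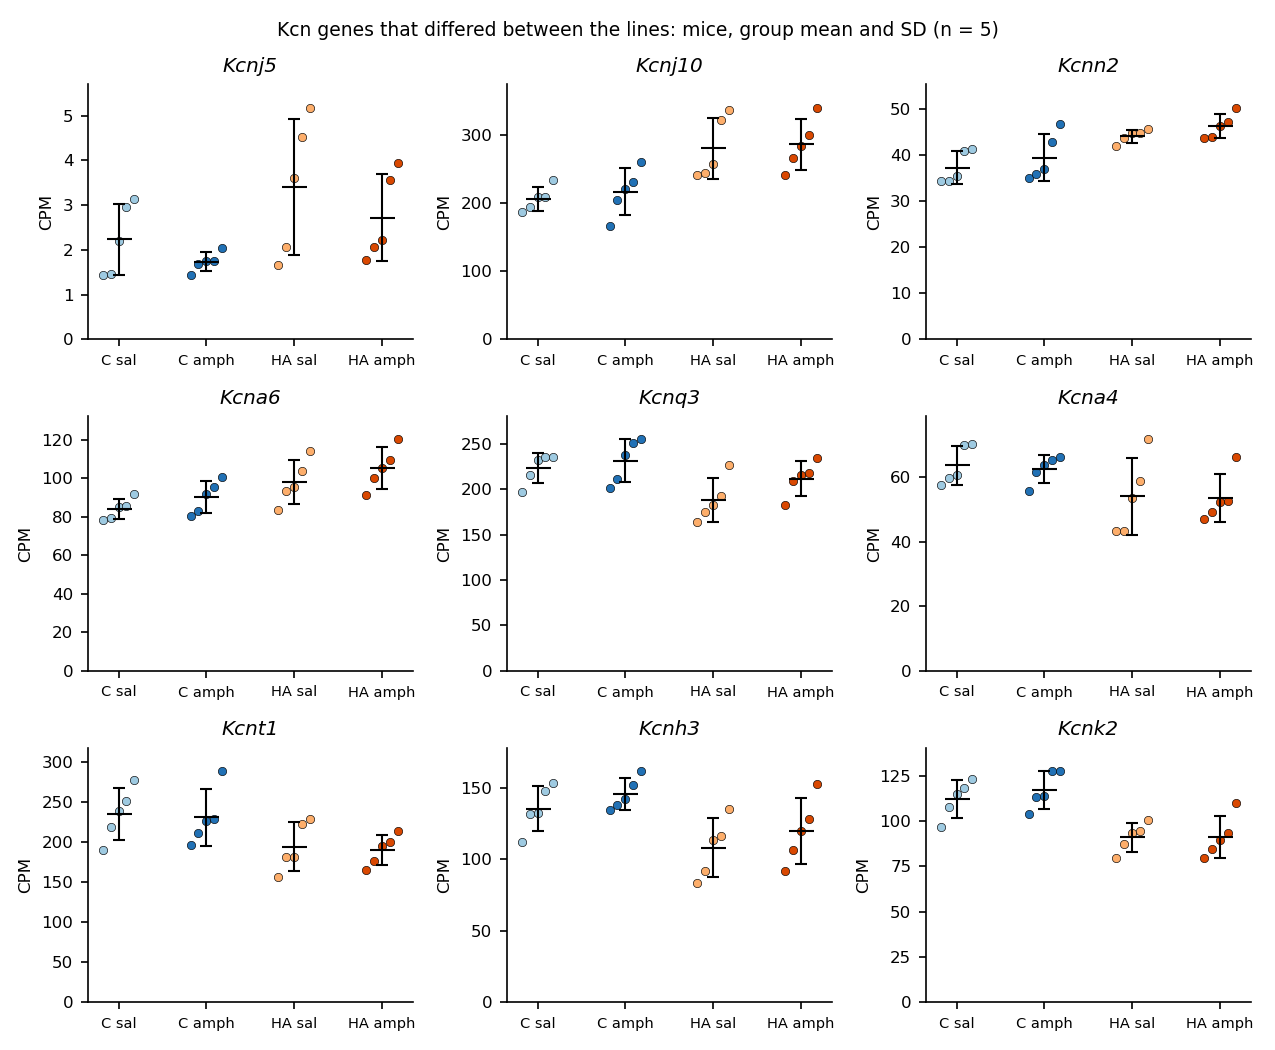
CPM in each mouse (points) for the 9 genes that passed the line test, by group (C Control, HA High-Active, sal saline, amph amphetamine), with the group mean and SD as a bar (n = 5). The upper genes *Kcnj5*, *Kcnj10*, *Kcnn2* and *Kcna6* had higher means in both High-Active groups than in the Control groups of the same treatment, and the other 5 had lower ones.

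The 13 auxiliary and 9 silent Kv members held no gene that passed for line. *Kcnab2* came nearest among the auxiliary genes, with a difference of -0.13 (FDR 0.12), and *Kcnmb4*, the neuronal beta subunit of BK, had -0.22 (FDR 0.17). Leaving out some single mice (192, 469, 477, 872 or 886) brought *Kcnab2* under the threshold. Of the silent subunits, *Kcnf1* and *Kcng1* had differences of -0.16 and -0.17 and did not pass. *Kcng2*, named after its values were seen, went the other way (0.27, FDR 0.13) and was the only one of its class at an unadjusted p under 0.05. Proteins outside the Kcn symbols that join, anchor or regulate these channels, with the related Hcn cation channels, gave 24 listed genes, of which 21 were tested. There, 2 were higher and 3 lower in High-Active mice, beside 7.63% and 6.90% of all genes. *Dpp10*, a Kv4 partner, was higher (0.19, FDR 0.0312), and *Abcc9*, a sulfonylurea receptor of the ATP-sensitive channel found in vessels and glia, was higher (0.38, FDR 0.0401). *Abcc8*, the neuronal sulfonylurea receptor, was lower (-0.31, FDR 0.0475), as were *Adam22*, a Kv1-associated synaptic protein (-0.10, FDR 0.0737), and *Rgs7bp*, an anchor of the GIRK regulator RGS7 (-0.23, FDR 0.0875). The pore genes of the ATP-sensitive channel, *Kcnj11* and *Kcnj8*, had differences of 0.01 (FDR 0.93) and 0.11 (FDR 0.58).

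The amphetamine comparison asked what changed 2 hours after 0.25 mg/kg, averaged over both lines. No channel gene passed FDR under 0.1, and 0% of all genes did. At an unadjusted p under 0.05 there were 22 members of 80 (27.5%), all higher after amphetamine and 0 lower. Over all genes 12.5% had such a p, 7.06% higher and 5.40% lower. Positive differences were found in 56 of 80 members (70%), against 46.98% of all genes. The median was 0.06 over the members and -0.007 over all genes. With the cortical score in the fit, 48 of 80 members had positive differences. By other tools, DESeq2 passed 4 members at FDR under 0.1 with 2.64% of all genes, and edgeR's likelihood-ratio test with robust dispersions passed 10 with 3.10% of all genes. In the quasi-likelihood test 4 members passed when mouse 411 was left out, 7 without mouse 415 and 1 without mouse 197 or 883. The share of all genes that passed in those runs is not given here, so these counts have no background beside them. Mouse 415 had the lowest cortical score of the amphetamine mice (-0.98). Mice 411 and 883 had the highest of the saline mice (0.83 and 0.65), and mouse 197 had -0.44. The part of the score in these calls was not tested.

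By class, the two-pore genes had 9 of 9 positive differences and 5 with p under 0.05, which were *Kcnk1*, *Kcnk4*, *Kcnk6*, *Kcnk9* and *Kcnk12*. All of these but *Kcnk1* were low genes, at 0.541 to 1.70 RPKM. Calcium- or sodium-activated genes had 3 of 7 with such a p, silent Kv subunits 3 of 9, Kv1 to Kv4 pores 4 of 15, inward rectifiers 3 of 13, the EAG, ERG and ELK group 2 of 8, auxiliary subunits 2 of 13 and Kv7 genes 0 of 4. The 3 inward rectifiers were *Kcnj3*, *Kcnj6* and *Kcnj9*, which encode the GIRK1, GIRK2 and GIRK3 subunits. The remaining GIRK gene, *Kcnj5*, had a negative difference of -0.35 (FDR 0.53). Within 1 line, two-pore genes higher at a p under 0.05 numbered 0 of 9 in Control and 2 of 9 in High-Active mice. Over all genes these shares were 3.08% and 4.94%.

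The smallest p-values belonged to *Kcnab2*, *Kcnj3*, *Kcnj6* and *Kcnma1*, each with an edgeR FDR of 0.197. *Kcnj3* stood at 27.3, 40.9 and 52.5 CPM in the 10 saline mice and 45.0, 52.1 and 67.9 CPM in the 10 amphetamine mice (lowest, median, highest). The treatments overlapped, with 5 amphetamine mice above every saline mouse, and the log2 difference was 0.43 (SE 0.11). *Kcnj6* was a lower gene, at 3.86, 5.80 and 9.09 CPM after saline and 5.35, 9.04 and 14.2 CPM after amphetamine (0.60, SE 0.15). *Kcnma1* stood at 43.0, 50.6 and 59.8 CPM after saline and 44.8, 63.6 and 83.3 CPM after amphetamine, with 7 amphetamine mice above every saline mouse (0.33, SE 0.084). *Kcnab2* stood at 215.2, 243.8 and 303.8 CPM after saline and 247.5, 275.5 and 318.6 CPM after amphetamine (0.20, SE 0.050). Amphetamine values of *Kcnab2* began within the saline range, so no gap separated the treatments.

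Some of these genes moved with the cortical markers of the libraries. Within the 4 groups, 10 of the 80 members rose with the cortical score at FDR under 0.1 and 0 fell, against 4.23% of all genes that rose and 2.14% that fell. The 10 were *Kcnmb4*, *Kcnh7*, *Kcnk4*, *Kcnj6*, *Kcnt2*, *Kcnv1*, *Kcnj9*, *Kcnh3*, *Kcnab2* and *Kcnj3*; *Kcnma1* did not pass (slope 0.18, FDR 0.24). Of the 22 members with an amphetamine p under 0.05, 9 (40.9%) rose with the score, as did 32.3% of the 1045 genes that were higher at such a p over the whole table. With the score in the fit, the number of members higher at a p under 0.05 fell from 22 to 1, and the number of all genes that were higher at such a p from 1045 to 323. The 1 was *Kcnk1*, whose log2 difference was 0.18 without and 0.27 with the score (edgeR FDR 0.98 with it). *Kcnj3*, *Kcnj6*, *Kcnma1* and *Kcnab2* then had differences of 0.20, 0.18, 0.18 and 0.09. With the oligodendrocyte score added, 6 members were higher at such a p, beside 3.03% of all genes. The slope test was chosen after the data had been seen, and the part of the markers in the drug differences was not tested beyond these fits.

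**Figure D4:**
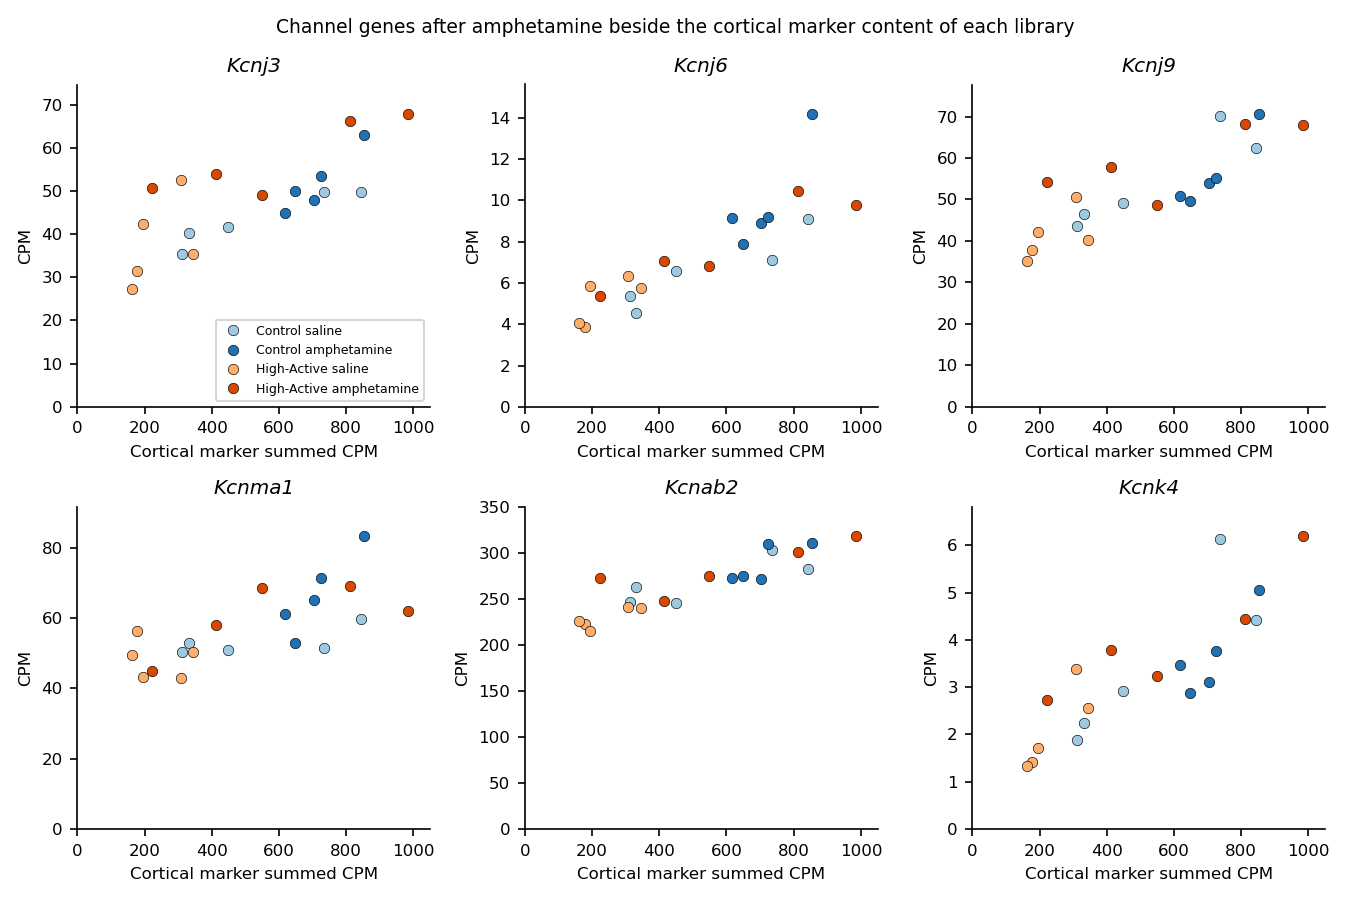
CPM of 6 genes in each of the 20 mice against the summed CPM of the 9 cortical excitatory markers in the same library, coloured by group. High-Active saline mice sit at 162.6 to 344.5 summed CPM and Control amphetamine mice at 616.8 to 853.1, and *Kcnj6*, *Kcnj9*, *Kcnab2*, *Kcnj3* and *Kcnk4* climb from left to right.

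Taken line by line, 5 members had an amphetamine p under 0.05 in Control mice, all higher, where 3.08% of all genes were higher at such a p. In High-Active mice 17 members were higher, where 4.94% of all genes were, and 2 lower, where 3.49% were. The difference between these responses was tested by the interaction of line and drug. No member passed FDR under 0.1, and 0% of all genes did. An unadjusted p under 0.05 was found for 3 members, against 2.97% of all genes, which over 80 genes is near the background.

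*Kcnab3*, a Kv beta subunit, had the smallest interaction p. It stood at 29.2, 29.6, 33.5, 37.8 and 48.8 CPM in Control saline, and at 25.0, 27.0, 29.8, 35.5 and 36.2 CPM in Control amphetamine. In High-Active mice it stood at 15.4, 22.4, 28.1, 29.5 and 34.5 CPM after saline and 32.1, 32.2, 40.4, 44.8 and 48.5 CPM after amphetamine. The High-Active treatments overlapped only through the highest saline mouse, and the Control treatments overlapped widely. The amphetamine difference was 0.61 in High-Active and -0.22 in Control mice, an interaction of 0.83 (SE 0.27, edgeR FDR 1). With the cortical score it was 0.71, still at an unadjusted p under 0.05.

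*Kcnj9* had an interaction of 0.48 (SE 0.19, FDR 1). It stood at 35.1, 37.8, 40.3, 42.1 and 50.5 CPM in High-Active saline and 48.7, 54.3, 57.8, 67.9 and 68.2 CPM in High-Active amphetamine, a difference of 0.53. In Control mice it stood at 43.5, 46.5, 49.2, 62.4 and 70.1 CPM after saline and 49.7, 50.9, 54.0, 55.3 and 70.7 CPM after amphetamine, a difference of 0.05. The High-Active saline mice, which were also lowest in cortical markers, were the low group, and the interaction was 0.30 with the score, no longer at an unadjusted p under 0.05.

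*Kcng1*, a silent subunit, went the other way (-0.51, SE 0.22, FDR 1). It stood at 23.1, 23.8, 27.7, 28.0 and 32.1 CPM in Control saline and 32.0, 35.9, 37.1, 38.3 and 47.4 CPM in Control amphetamine, groups that touched only at 1 mouse. In High-Active mice it stood at 23.2, 23.5, 26.3, 29.8 and 39.9 CPM after saline and 24.2, 24.3, 25.7, 27.8 and 39.7 CPM after amphetamine, with no visible shift. Its interaction was -0.64 with the score, at an unadjusted p under 0.05.

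**Figure D5:**
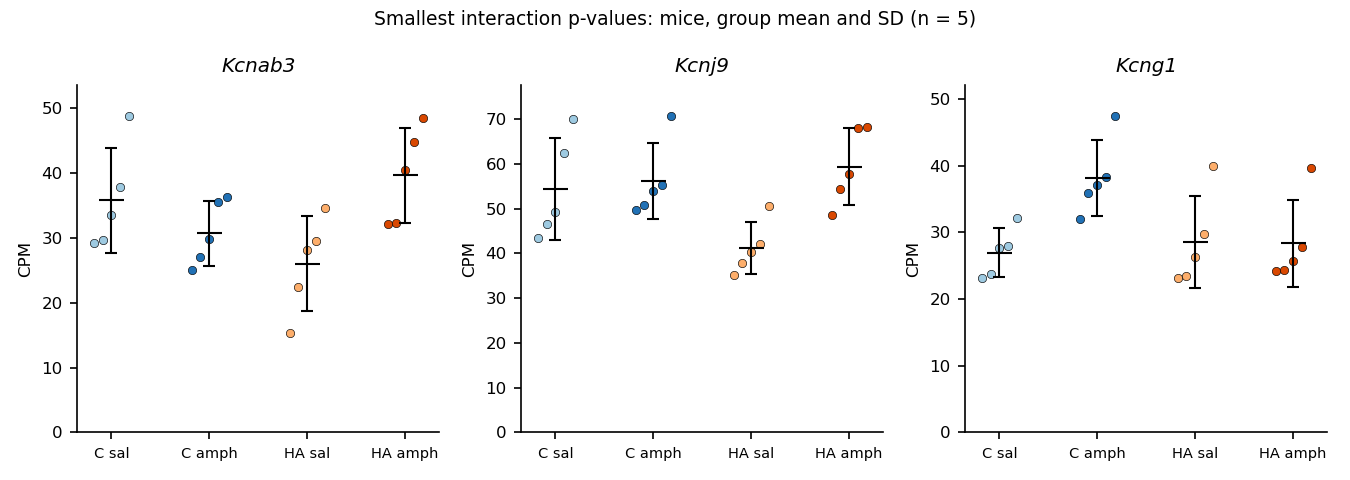
CPM in each mouse (points) of the 3 genes with the smallest interaction p, by group, with the mean and SD (n = 5). *Kcnab3* and *Kcnj9* differ by treatment in the High-Active mice (HA) and *Kcng1* in the Control mice (C); none passed FDR under 0.1.

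Of the partner genes, none passed for amphetamine or for the interaction. *Hcn2*, a pacemaker cation channel, had an amphetamine difference of 0.09 (FDR 0.39) and the related *Hcn3* of -0.21 (FDR 0.36).

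*Kcne2* and *Kcnj13* had the largest within-group SDs of the 80 members, 2.27 and 1.79 in log2 CPM, followed by *Kcng4* at 1.32, and they moved with a different set of markers. *Kcne2* encodes a beta subunit and *Kcnj13* the Kir7.1 channel, both known from choroid plexus epithelium. The summed level of 6 choroid plexus markers ran from 22.9 to 913.3 CPM. The 6 mice with the highest sums, at 173.1 CPM or more, were also the 6 highest for both genes. *Kcne2* was at 0.664 to 4.30 CPM in these 6 and 0 to 0.556 CPM in the other 14, and *Kcnj13* at 1.12 to 4.79 and 0 to 0.866 CPM. Those 6 mice came from all 4 groups. The line differences of *Kcne2* and *Kcnj13*, 0.96 and 0.53, had an SE of 0.94 and 0.72 and did not pass.

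Some members cannot be told apart from a neighbour with certainty. The antisense RNAs *Kcnmb4os2* and *Kcnd3os* overlap *Kcnmb4* and *Kcnd3* by 716 and 626 bp, and *Kcnmb1* lies on the opposite strand within *Kcnip1*. The strand setting of the counting is not given in the sources used here. None of these 6 genes passed for line, drug or interaction.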

How the data were processed

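RNA of striatum from 20 male mice was sequenced as stranded TruSeq paired-end libraries. Per the labels and methods, the authors aligned reads with TopHat2 2.0.10 to GRCm38 and deposited whole-number counts per Ensembl gene from HTSeq 0.6.1; nothing was normalized. Between 15.97% and 17.49% of each library was on rows that name no gene and was left out. Symbols came from a table of Ensembl IDs, with 37607 of 39179 matched. Genes above 1 CPM in at least 3 mice were normalized by TMM and fitted with edgeR 4.0.16 (R 4.3.3) as 4 group means, with quasi-likelihood tests and Benjamini-Hochberg adjustment over all 14792 genes for each contrast (threshold 0.1). Log2 CPM used a prior count of 2. RPKM used union exon lengths of GENCODE for GRCm38.

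Named genes were those that passed a test, the 3 smallest p-values of a contrast where none passed, the highest per kilobase of each class and a list of striatal channels; a few that the rule names are not reported here. Members, lists and tests were chosen with earlier results of these data known. The scripts were tested on simulated data. Alternatives were RLE normalization, other filters, FDR 0.05, DESeq2 1.42.0, edgeR's likelihood-ratio test with robust dispersions, limma 3.58.1 with family as a correlated block, a fixed family block, counts summed over families, marker scores as covariates and each mouse left out. Each library is 1 mouse; mice that share parents are not fully independent, and the p-values of the main test treat them as if they were.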

Additional observations from a re-analysis of the deposited data

Results flagged for a closer look

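Groups of 5 mice were examined for a single mouse far from the other 4, over the log2 CPM of the named genes and the summed choroid plexus and cortical markers. In all 148 groups were examined and 5 mice stood apart; chance alone flags about 1 in 20 such groups. The Control amphetamine mouse 407 was highest in *Kcnj6*, at 3.83 in log2 CPM, where the other 4 lay between 2.99 and 3.21; it also had the highest cortical marker sum of its group, 853.1 CPM. The High-Active amphetamine mouse 192 was highest in *Kcng1*, at 5.31 in log2 CPM against 4.60 to 4.80. For the summed choroid plexus markers, the High-Active amphetamine mouse 487 stood at 913.3 CPM against 33.1 to 103.3, the Control amphetamine mouse 369 at 267.5 against 22.9 to 87.6 and the Control saline mouse 469 at 744.7 against 26.2 to 152.2.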

How the results depend on the processing

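Counts of channel genes for the line comparison (9, with 4 higher and 5 lower) fell with marker covariates, with families as units and within 1 treatment, as did the share of all genes (14.5%). They were 3 (2 higher, 1 lower) with the cortical score (2.76% of all genes). With the cortical and oligodendrocyte scores the count was 1 (1 higher, 0 lower), beside 2.45% of all genes. When each family was added up to 1 unit it was 5 (2 higher, 3 lower), beside 4.12%. The line contrast gave 2 (1 higher, 1 lower) within saline (3.74%) and 1 (0 higher, 1 lower) within amphetamine (1.30%). For the runs that follow, the share of all genes is not given here, so their counts have no background beside them. At FDR 0.05 the channel genes called for line were 6, with 3 lower. RLE normalization, other CPM filters, DESeq2, the likelihood-ratio test and limma with families gave 8 to 11. Leaving out each mouse in turn gave 6 to 12, with 3 to 5 higher and 3 to 8 lower; the lower count was 8 without mouse 872 and 3 without mouse 197, 407, 415, 454, 871 or 883. The calls of *Kcnk2*, *Kcnj10*, *Kcnn2*, *Kcna6*, *Kcnh3* and *Kcnt1* held without any single mouse.

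For amphetamine, DESeq2 called 4 (2.64% of all genes) and the likelihood-ratio test with robust dispersions 10 (3.10%). Leaving out a mouse gave 0 to 7 (1 without 197, 4 without 411, 7 without 415, 1 without 883, otherwise 0). The share of all genes in those runs is not given here. Mouse 415 had the lowest cortical score of the amphetamine mice, and 411 and 883 the highest of the saline mice. The part of the score in these calls was not tested. Members higher at an unadjusted p under 0.05 numbered 1 with the cortical score (2.18% of all genes) and 6 with both scores (3.03%). They numbered 5 in the contrast within Control (3.08%), 7 with family as a fixed block (2.18%) and 16 to 24 without a mouse. Members lower at such a p numbered 1 by DESeq2 and 2 in the contrast within High-Active (3.49% of all genes). They numbered 1 with the family block and 0 to 2 without a mouse. Where no share is printed, that of all genes is not given here. No alternative run called an interaction in a channel gene. *Kcnj5*, at 1.45 to 5.18 CPM, was called on the fewest reads of the 9, with 55 to 219 per mouse. Its within-group SD was 0.51 in log2 CPM, and the part of depth in this spread was not tested. A covariate or block leaves fewer degrees of freedom. A contrast within 1 treatment or line compares 10 mice, with the spread estimated from all 20. The cause of the moved counts was not tested further. The groups share no replicate numbers; the pairing of treatments by shared parents is that of the family block.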
